A study of Mus musculus with 13 samples.

Results

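Solute carriers are membrane proteins that move amino acids, sugars, metals, vitamins, nucleosides, lipids and ions across the plasma membrane or the membranes of lysosomes, the Golgi apparatus and mitochondria. Of 320 mouse genes with a symbol of the form Slc, family number, a and member number and a probe set annotated to that gene alone, 123 were counted as expressed in spleen leukocytes and are described here. They were chosen by their signal: the probe set with the highest mean had to reach a signal of 100 in all arrays of at least 1 of 6 leukocyte populations. The levels of these 123 genes are therefore a description, and because the rule asks for a high signal somewhere and not everywhere, a difference between populations is partly built into it. For this reason each count of members that passed a test is set beside the share of the 7913 genes of any kind that met the same signal rule and passed the same test. The members nearest to the limit were Slc29a4, Slc38a6 and Slc12a4, whose best population reached at least 101, 102 and 102, and the nearest genes left out were Slc37a3, Slc17a5 and Slc17a9 at 92.6, 89.7 and 88.4.

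The study compared dendritic cell (DC) subsets with each other and with lymphocytes. Cells were sorted from the spleens of untreated wild-type C57BL/6 mice, and their RNA was amplified and hybridized to 13 Affymetrix arrays. The DC subsets were plasmacytoid DCs (pDCs), CD8α conventional DCs (CD8α cDCs) and CD11b conventional DCs (CD11b cDCs), with 2 arrays per subset and 10 to 15 mice pooled for an array. Natural killer (NK) cells had 2 arrays with pools of 6 to 10 mice. B cells had 3 arrays, replicate 1 from 3 mice, replicate 2 from 2 and replicate 3 from 1, and CD8 T cells had 2 arrays, both from single animals. The labels give female mice aged 6 to 8 weeks for CD8α cDC replicate 1 and both CD8 T cell arrays and male mice aged 6 weeks for B cell replicates 2 and 3, and leave age and sex open for the others. B cell replicates 2 and 3 are labelled follicular, replicate 1 only as B lymphocytes. No group was treated or labelled as a mutant, so every difference below is one between sorted untreated populations. In sorted bulk RNA, fewer expressing cells and less RNA per cell cannot be told apart.

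Markers of each population were high in its own arrays. The summed signal of the listed pDC markers was 23610.0 to 26590.0 in pDCs and at most 4362 elsewhere, that of the CD8α cDC markers 13450.0 to 13560.0 in CD8α cDCs and at most 3971 elsewhere, and that of the CD11b cDC markers 5900.0 to 6203 in CD11b cDCs and at most 3061 elsewhere. Some arrays stood apart. The ratio of 3′ to 5′ Gapdh signal, a measure of RNA and amplification quality, was 23.9 and 11.2 on the NK cell arrays and 3.46 to 6.30 on the others. B cell replicate 1 correlated with replicates 2 and 3 at 0.884 and 0.875 over the members, whereas other replicate pairs reached 0.965 to 0.988, and it carried more signal of listed plasma cell genes (10740.0 in sum against 2494 and 2829) and neutrophil genes (1404 against 99.5 and 485). The DC arrays were scanned in another period than the lymphocyte arrays, so scan period cannot be told apart from the difference of DCs and lymphocytes. Xist and Y-linked transcripts went against the labelled sex on 3 arrays: B cell replicate 2, labelled male, carried Xist, and both CD8 T cell arrays, labelled female, carried Kdm5d and Eif2s3y. All DC arrays carried Xist (1539 to 4503), with Kdm5d at 10.6 or less. Lymphocyte arrays other than B cell replicate 2 had Kdm5d of 134 to 185 and Xist of at most 1.055. Apart from that replicate, sex by these transcripts therefore cannot be told apart from the difference of DCs and lymphocytes either.

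Differences are given on the log2 scale after signals under 20 were set to 20, so that a fold over a population that sits there is only a lower bound. Tests were those of one limma model over all 13 arrays, adjusted over the 9380 genes tested, with a threshold of 0.05. Levels are compared between populations for 1 gene at a time and never between genes, since each probe set has its own response. Where nothing in the labels says otherwise, the spread between arrays of a population may be technical.

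Most members varied among the populations. The F-test over the 6 populations was passed by 109 of 123 members (88.6%), beside 84.1% of all genes under the same signal rule. Of all members, 43 reached a signal of 100 in all 6 populations, 12 in 5, 4 in 4, 20 in 3, 12 in 2 and 32 in a single one. By population, 83 members reached that signal in pDCs, 78 in CD8 T cells, 77 in CD11b cDCs, 74 in CD8α cDCs, 73 in NK cells and 65 in B cells. The highest mean was found in pDCs for 33 members, in CD8α cDCs for 24, in each lymphocyte population for 17 and in CD11b cDCs for 15.

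By substrate, the mitochondrial carriers of family 25, which exchange metabolites across the inner mitochondrial membrane, formed the largest group with 29 members of 44 genes on the array. Carriers of metals and heme followed with 22 of 33, and carriers of amino acids and peptides with 20 of 65. All 4 genes classed as carriers of nucleotide sugars and acetyl-CoA were members. Slc35a4 and Slc35a5 of family 35 were also members, but were classed as other or unassigned. Genes of family 35 whose symbols carry other letters lie outside the rule. Classes with functions in kidney, gut and nerve were sparse, with 10 of 52 carriers of inorganic ions and 1 of 25 carriers of organic cations, anions and amines. That 1 member was Slc22a5, the carnitine transporter. Within the pDC arrays, the vitamin, lipid and choline, and nucleoside classes had medians above the members' own mean of the 6 populations. These medians were 1.00, 1.67 and 0.78, over 3, 4 and 4 genes. They do not hold for every member. Slc19a1 of the vitamin class and Slc29a4 of the nucleoside class lay below their own mean in pDCs. The nucleoside class also had a median of 0.61 in CD11b cDCs. Carriers of sugars and polyols lay lowest in CD8α cDCs, where the class median was -1.09 over 9 genes and 3 of the 9 reached a signal of 100.

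**Figure D1:**
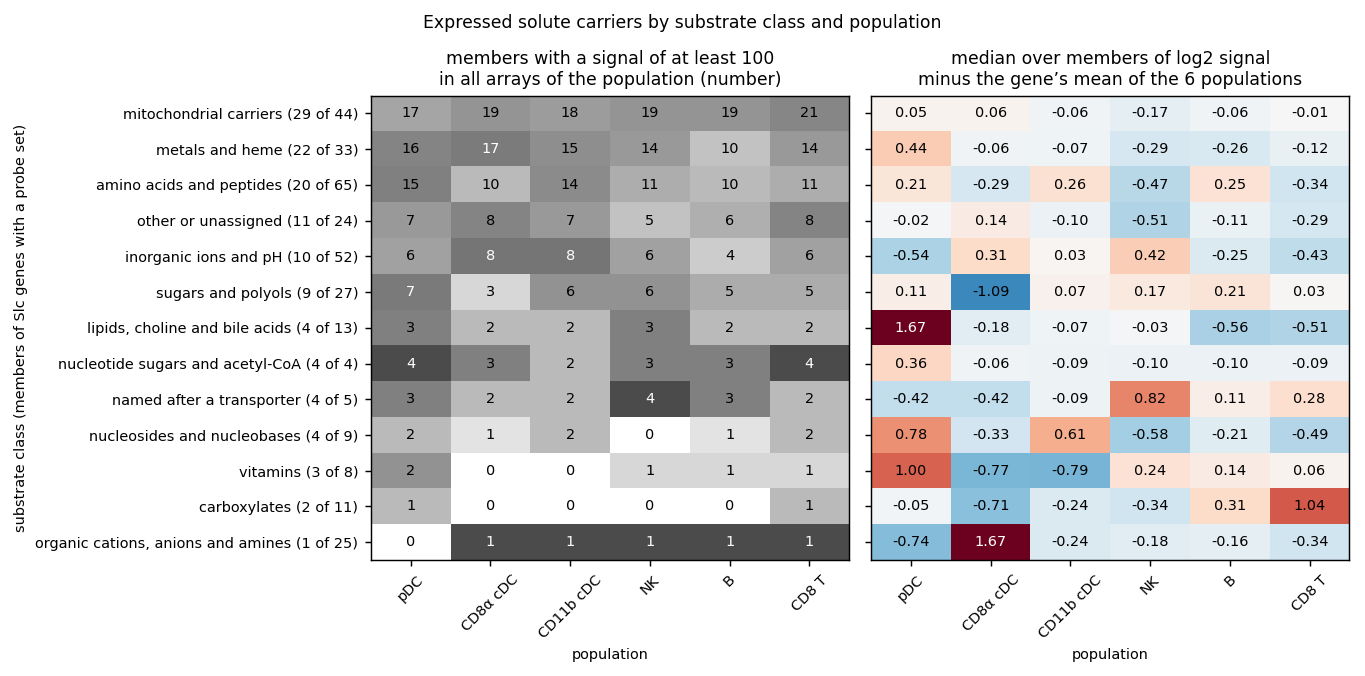
Substrate classes by population: the left panel gives how many members reached 100 on every array of a population, shaded by their share of the class, and the right panel the median over members of the log2 signal minus the gene's mean of the 6 populations (red, higher). Sugar carriers reached the signal in 3 of 9 cases in CD8α cDCs and in 7 of 9 in pDCs, and the mitochondrial carriers stayed between 17 and 21 members in each population.

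The members that stood highest in 1 population were most numerous in pDCs and CD8α cDCs. A member was called highest in a population when it exceeded each of the other 5 by at least 0.4 and the weakest of these comparisons passed the test. In pDCs this held for 8 members (6.5% of 123, beside 3.55% of all genes under the same signal rule), in CD8α cDCs for 7 (5.69% beside 2.75%), in CD11b cDCs for 2 (1.63% beside 1.9%), in NK cells for 2 (1.63% beside 3.93%), in B cells for 1 (0.813% beside 1.52%) and in CD8 T cells for 3 (2.44% beside 2.29%). The sum of 23 members fell to 15 without CD8 T cell replicate 1. Where a member met the signal rule in 1 population alone, a call as highest there is partly built into its choice. The adjusted p of such a call does not account for this. Promoters of 4 members that mark 1 population are printed here, chosen after their values were seen: Slc41a2 and Slc49a4 for pDCs, Slc11a1 for CD8α cDCs and Slc16a1 for CD8 T cells. RefSeq lists a start for 94 of the 123 members (129 starts) and 1 start for each of these 4 genes. Each window runs from 250 bases before to 50 bases after the start on the strand of the gene (build GRCm38.p6): Slc41a2 chr10:83337768-83338067 (minus), Slc49a4 chr16:35769321-35769620 (minus), Slc11a1 chr1:74374953-74375252 (plus) and Slc16a1 chr3:104638414-104638713 (plus). Capitals mark matches, on either strand, to the core GAGGAA bound by the myeloid factor PU.1, to the E-box CACGTG bound by MYC and by the lysosomal regulators of the MiT family, and to the GC box GGGCGG.
Slc41a2: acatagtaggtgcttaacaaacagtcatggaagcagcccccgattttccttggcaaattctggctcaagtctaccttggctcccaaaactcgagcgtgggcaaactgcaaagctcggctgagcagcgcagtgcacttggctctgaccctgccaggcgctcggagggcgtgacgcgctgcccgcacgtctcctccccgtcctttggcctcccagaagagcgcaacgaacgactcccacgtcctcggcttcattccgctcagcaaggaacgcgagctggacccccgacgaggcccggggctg
Slc49a4: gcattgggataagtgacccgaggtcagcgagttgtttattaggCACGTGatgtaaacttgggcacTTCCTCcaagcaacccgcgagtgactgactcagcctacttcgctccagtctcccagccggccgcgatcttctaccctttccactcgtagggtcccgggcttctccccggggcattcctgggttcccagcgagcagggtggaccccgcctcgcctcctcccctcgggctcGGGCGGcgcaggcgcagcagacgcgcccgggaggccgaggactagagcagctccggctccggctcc
Slc11a1: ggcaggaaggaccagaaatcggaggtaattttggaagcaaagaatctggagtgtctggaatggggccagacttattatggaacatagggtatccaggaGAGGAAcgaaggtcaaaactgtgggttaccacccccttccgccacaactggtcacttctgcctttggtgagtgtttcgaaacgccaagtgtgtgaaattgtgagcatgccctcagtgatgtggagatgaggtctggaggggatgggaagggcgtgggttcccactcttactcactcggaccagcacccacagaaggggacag
Slc16a1: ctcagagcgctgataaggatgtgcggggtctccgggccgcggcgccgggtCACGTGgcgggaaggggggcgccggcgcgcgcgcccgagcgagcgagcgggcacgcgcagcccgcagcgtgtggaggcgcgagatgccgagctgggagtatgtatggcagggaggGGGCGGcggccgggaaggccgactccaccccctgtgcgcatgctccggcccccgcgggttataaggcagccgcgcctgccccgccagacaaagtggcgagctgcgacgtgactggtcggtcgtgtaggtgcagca

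No match to the 3 motifs lay in the Slc41a2 window, and the Slc49a4 window held 1 match to each. The Slc11a1 window held 1 match to GAGGAA, and the Slc16a1 window held 1 to CACGTG and 1 to GGGCGG. None of these matches overlapped another. Of 32851 listed promoter windows of this length, 28.3% held GAGGAA, 7.15% CACGTG and 35.7% GGGCGG. Among the 129 windows of members the shares were 20.2%, 16.3% and 74.4%, and the median share of G and C was 62.3% in the members' windows and 52.7% in all, so the 3 motifs, which differ in their G and C, are given as a description of sequence and not as sites.

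In pDCs, the interferon-producing DC type, the members that stood out carry magnesium, fatty acids, nucleosides, zinc, vitamin C, choline and lysosomal peptides. Slc41a2, a magnesium transporter, had signals of 912 and 1038 on the pDC arrays, 82.3 and 57.4 in NK cells, 47.8 and 49.98 in CD8α cDCs and 37.6, 19.9 and 24.2 in B cells, and at most 8.07 in CD11b cDCs and CD8 T cells. No array of another population came near the pDC arrays, and the gap to the next population was 3.82 (adjusted p = 2.72e-06). Slc49a4, a lysosomal membrane protein, had 1054 and 909.9 in pDCs and 174 and 163 in CD8 T cells, and all 9 other arrays lay at or below 42.3. Its gap was 2.54 (adjusted p = 6.8e-07). Slc27a1, which promotes the uptake of long-chain fatty acids, had 148 and 154 in pDCs and between 11.4 and 29.9 on every other array, a gap of 2.47 (adjusted p = 5.19e-06) from values near the floor. Slc27a1 and Slc41a2 met the signal rule in pDCs alone, so their gaps are partly built into their choice.

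Slc29a3, the equilibrative nucleoside transporter of lysosomes, had signals of 1196 and 1285 in pDCs and 396 and 460.4 in CD11b cDCs, with a gap of 1.54 (adjusted p = 0.000112). Slc39a14, which brings zinc, iron and manganese into cells, had 355 and 345 in pDCs and 106 and 138 in CD8 T cells, with a gap of 1.53 (adjusted p = 0.00252). Both sets of pDC arrays were separated from all other arrays. The ascorbate transporter Slc23a2 (175 and 168 in pDCs, 74.2, 99.2 and 114 in B cells) and the choline transporter Slc44a1 (1743 and 1887 in pDCs, 1128 and 1095 in CD11b cDCs) had smaller gaps of 0.86 (adjusted p = 0.0159) and 0.71 (adjusted p = 0.0219), and each lost its call without either pDC array, Slc23a2 also without either CD8 T cell array and Slc44a1 also without either CD11b cDC array, with adjusted p of up to 0.129 and 0.114. For Slc15a3 the gap of 0.79 (adjusted p = 0.0411) was lost without any of 11 of the 13 arrays in turn, with an adjusted p of up to 0.323.

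Slc15a3 and Slc15a4 both carry histidine and small peptides out of endosomes and lysosomes, and Slc15a4 is known as a requirement for signaling by the endosomal Toll-like receptors of pDCs. Slc15a3 had signals of 896 and 725 in pDCs, 426 and 511 in CD11b cDCs, 133, 163 and 198 in B cells and 45.5 and 47.8 in CD8α cDCs, and at most 8.17 in NK and CD8 T cells. Slc15a4 had 1238 and 1094 in pDCs, 930.4 and 1003 in CD11b cDCs, 1177, 455 and 533 in B cells, 205 and 218 in CD8α cDCs, 149 and 198 in NK cells and 113 and 141 in CD8 T cells. Both genes had their highest means in pDCs, followed by CD11b cDCs and then B cells. The difference of pDCs from CD11b cDCs was 0.79 (adjusted p = 0.0132) for Slc15a3 and 0.27 (adjusted p = 0.65) for Slc15a4. Between CD8α and CD11b cDCs both were lower in CD8α cDCs, with differences of -3.32 and -2.19 (adjusted p = 8.22e-07 and 0.00148). For Slc15a4 the B cell arrays did not lie together, and replicate 1, which stood apart in general, was the high one.

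**Figure D2:**
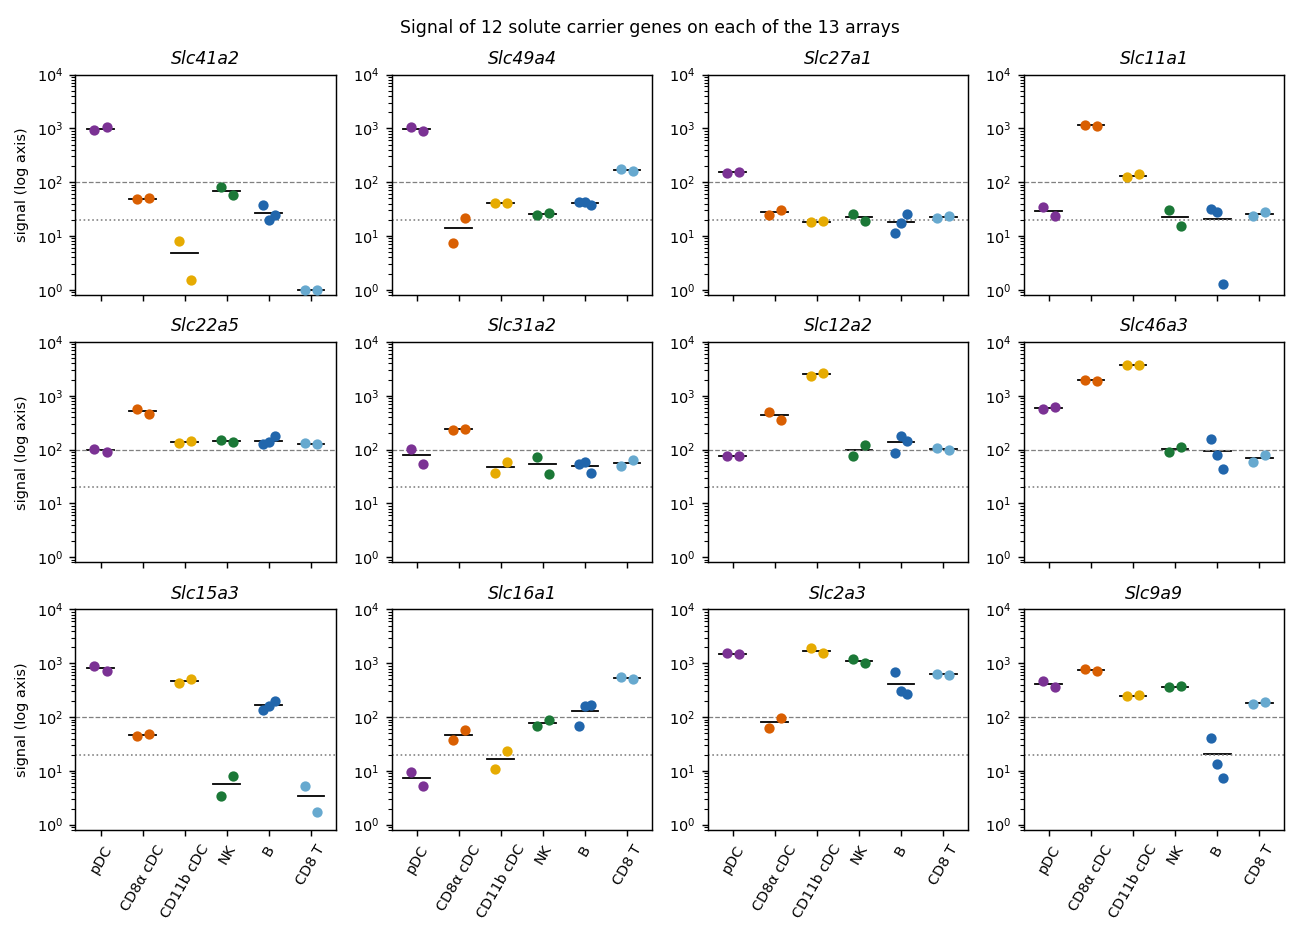
Signals of 12 members on each array (log axis; points, arrays; black lines, population means; dotted line, the floor of 20; dashed line, the signal of 100; values under 1 drawn at 1). The pDC points lie far above the rest for Slc41a2, Slc49a4 and Slc27a1, the CD8α cDC points for Slc11a1, the CD11b cDC points for Slc12a2 and the CD8 T cell points for Slc16a1, and the CD8α cDC points lie lowest for Slc2a3 and the B cell points for Slc9a9.

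In CD8α cDCs, the subset known for cross-presentation, the 7 members that stood highest included carriers of metals and of carnitine. Slc11a1, of a family of iron and manganese carriers, had signals of 1140.3 and 1118 in CD8α cDCs and 124 and 139 in CD11b cDCs, and all other arrays lay between 1.30 and 34.6. These are transcript signals, and the function of the protein in these mice was not tested. The gap of 3.10 (adjusted p = 2.16e-05) was the largest of the 7. Slc22a5, which takes up carnitine, had 580.2 and 464 against 126, 138 and 177 in B cells and 148 and 139 in NK cells, a gap of 1.83 (adjusted p = 0.000102). Slc25a20, which moves acylcarnitine into mitochondria for fatty acid oxidation, had 1672 and 1914 against 614 and 617 in CD11b cDCs, a gap of 1.54 (adjusted p = 0.0133). Both genes of carnitine transport were thus higher in CD8α cDCs than in each other population, although the call of Slc25a20 was lost without any 1 of 5 DC arrays (adjusted p up to 0.136).

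The set held 4 more members. The copper transporter Slc31a2 had 231 and 242 in CD8α cDCs and 103 and 53.5 in pDCs, with a gap of 1.68 (adjusted p = 0.0371) that was lost without any of 8 arrays (adjusted p up to 0.37). Slc66a2, a member of the PQ-loop family, had 1515 and 1365 in CD8α cDCs, 613 and 612 in CD11b cDCs and 229, 428 and 422 in B cells, with a gap of 1.23 (adjusted p = 0.0286) that was lost without any of 8 arrays (adjusted p up to 0.211). Slc22a23, an orphan of the organic ion family, had 130.1 and 119 in CD8α cDCs and 62.9 and 63.2 in pDCs (gap 0.98, adjusted p = 0.00295). Slc25a13, the mitochondrial carrier of aspartate and glutamate, had 110.4 and 105 in CD8α cDCs and 50.9 and 68.7 in CD11b cDCs (gap 0.86, adjusted p = 0.0149, with an adjusted p of up to 0.14 without either CD8α cDC array or CD11b cDC replicate 1). The second carrier of this pair, Slc25a12, had its highest mean in pDCs, with 1188 and 980.3 against 395 and 452 in CD8α cDCs. CD8α cDCs were also lowest for Slc2a3, a glucose transporter of high affinity, with 62.0 and 96.8 against 1903 and 1542 in CD11b cDCs and at least 265 on all arrays of other populations. That gap was -2.30 (adjusted p = 0.00999), with an adjusted p of 0.173 without CD8α cDC replicate 1.

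In CD11b cDCs 2 members stood highest. Slc12a2, which brings sodium, potassium and chloride into the cell together, had signals of 2363 and 2661 in CD11b cDCs, 504 and 361 in CD8α cDCs and 75.3 to 180.4 on the arrays of the other populations, a gap of 2.56 (adjusted p = 0.000567). Both cDC subsets were thus separated from all other arrays. Slc6a13, which carries GABA and taurine, had 116 and 197 in CD11b cDCs and 55.1 and 83.3 in CD8α cDCs, a gap of 1.16 (adjusted p = 0.0405) that was lost without any of 9 arrays (adjusted p up to 0.446). Listed markers of red pulp macrophages were higher in CD11b cDCs than elsewhere: their summed signal was 1781 to 1986 there and 94.3 to 456 in the other populations, of which Adgre1 made up 1402 on average. Of the 7 of these genes tested, 4 were higher in CD11b cDCs (Adgre1, C1qa, C1qb and C1qc) and 2 in CD8α cDCs (Vcam1 and Hmox1), and Cd5l, Mrc1 and Axl averaged at most 23.0. The summed signal of listed monocyte genes was 3415 to 3741 in CD11b cDCs and at most 1547 elsewhere. The part of such cells in the CD11b cDC values was not tested.

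**Figure D3:**
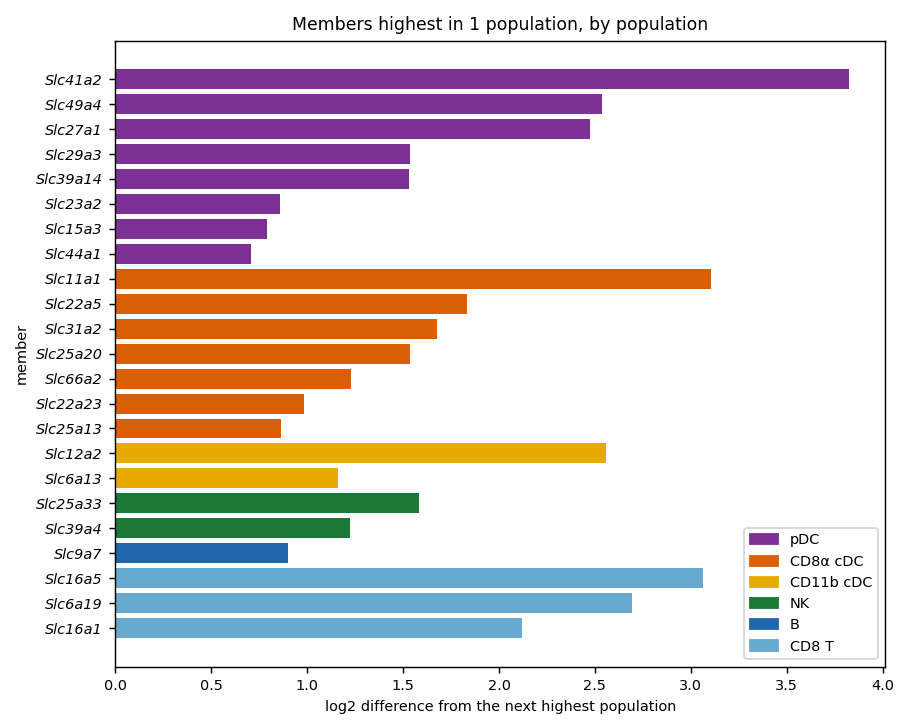
Members called highest in 1 population: the bar is the log2 difference of that population's mean from the next highest population's mean, and the color is the population. The longest bars are Slc41a2 in pDCs (3.82), Slc11a1 in CD8α cDCs (3.10) and Slc16a5 in CD8 T cells (3.06), and 15 of the 23 bars belong to pDCs or CD8α cDCs.

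CD8 T cells stood highest for 3 members, a share near that of all genes. Slc16a1, the transporter of lactate and pyruvate, had signals of 546 and 516 in CD8 T cells, 69.2, 158 and 166 in B cells, 68.8 and 88.0 in NK cells and between 5.28 and 56.4 on the DC arrays, with a gap of 2.12 (adjusted p = 0.00331) whose adjusted p was 0.0581 without CD8 T cell replicate 1. Slc16a5, another member of the monocarboxylate family, had 112 and 249 in CD8 T cells and at most 4.61 on every other array (gap 3.06, adjusted p = 5.94e-05). Slc6a19, a neutral amino acid transporter best known from gut and kidney, had 117 and 171 in CD8 T cells and at most 25.5 elsewhere (gap 2.69, adjusted p = 7.87e-06). For both, the CD8 T cell arrays lay above all others, and the gap of Slc16a5 is a lower bound because all other arrays were under the floor. All 3 members met the signal rule in CD8 T cells alone. Their gaps are therefore partly built into their choice, and the adjusted p does not account for this.

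NK cells stood highest for Slc25a33, a mitochondrial carrier of pyrimidine nucleotides, with 258 and 332 against 99.2 and 95.9 in CD8 T cells (gap 1.59, adjusted p = 0.0162), and for Slc39a4, a zinc importer, with 124 and 116 against 47.2 and 56.3 (gap 1.22, adjusted p = 0.0122). Slc25a33 lost its call without either NK or either CD8 T cell array, and Slc39a4 without either NK array or CD8 T cell replicate 1, with adjusted p of up to 0.151 and 0.106. NK cells stood lowest for the zinc transporter Slc30a5 of the secretory pathway (189 and 271 against 409.6 or more elsewhere) and for Slc38a9, the lysosomal arginine sensor (43.4 and 45.9 against 83.9 or more), with gaps of -0.93 (adjusted p = 0.0446) and -1.04 (adjusted p = 0.0151). The Slc30a5 call was lost without any of 11 arrays and the Slc38a9 call without any of 5, with adjusted p of up to 0.251 and 0.107. The high 3′ to 5′ ratios of both NK cell arrays stand beside these 4 results, and their part in them was not tested.

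B cells stood highest for Slc9a7, a sodium and proton exchanger of the Golgi, with 419, 387 and 436 against 209 and 234 in NK cells (gap 0.90, adjusted p = 0.0124, adjusted p up to 0.0979 without CD8α cDC replicate 1 or 2 or NK replicate 1). They stood lowest for Slc9a9, a sodium and proton exchanger of endosomes, with 40.3, 13.6 and 7.45 against 174 and 189 in CD8 T cells and 781 and 705 in CD8α cDCs, and for Slc25a24, a mitochondrial carrier of ATP, magnesium and phosphate, with 32.9, 40.6 and 45.1 against 93.8 and 86.0 in CD11b cDCs and 480.4 and 466 in NK cells. The gaps were -2.85 (adjusted p = 0.00029) and -1.20 (adjusted p = 0.00357). Together, 5 members (4.07%, beside 4.97% of all genes under the same signal rule) were lowest in 1 population, and this count ran from 2 without CD8α cDC replicate 1 to 11 without B cell replicate 1. With 8 members, it also rose when both NK cell arrays were left out.

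The 3 comparisons of the study's design were then read for all members. Between DCs and lymphocytes, taken as the mean of 3 populations each, 49 members were higher in DCs (39.8%, beside 32.6% of genes under the same rule) and 30 were lower (24.4% beside 31.6%). The median difference was 0.11 over the members and 0.00 over all genes under the rule. Of the carriers of metals and heme, 13 of 22 were higher and 5 lower in DCs, with a median difference of 0.47. Of the carriers of amino acids and peptides 8 of 20 were higher and 4 lower, near the share of all members, and of the mitochondrial carriers 10 of 29 were higher and 6 lower. The largest difference was that of Slc46a3, a lysosomal carrier, whose signals were 3814 and 3666 in CD11b cDCs, 1999 and 1903 in CD8α cDCs and 579 and 628 in pDCs, against 91.4 and 114 in NK cells, 159, 79.0 and 43.7 in B cells and 58.0 and 80.1 in CD8 T cells. All DC arrays lay above all lymphocyte arrays, and DCs exceeded lymphocytes by 4.31 ± 0.25 (log2, SE, adjusted p = 9.83e-08).

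Metal carriers with separated groups included Slc31a1, which imports copper, with 78.5 to 115 on DC arrays and 17.5 to 67.9 on lymphocyte arrays (1.67 ± 0.12, log2, SE, adjusted p = 3.81e-07). Slc39a11, a zinc importer, had 228 to 506 on DC arrays and 31.6 to 169 on lymphocyte arrays (2.00 ± 0.23, log2, SE, adjusted p = 2.67e-05). Slc48a1, which carries heme out of lysosomes, had 209.7 and 159 in pDCs, 145 and 133 in CD8α cDCs and 110.0 and 137 in CD11b cDCs and at most 92.8 in lymphocytes (1.18 ± 0.13, log2, SE, adjusted p = 1.31e-05). Slc30a7, a relative of Slc30a5, followed with a difference of 0.98 (adjusted p = 0.00159). Of the other zinc carriers, Slc30a4 (0.79), Slc30a5 (0.56), Slc39a7 (0.60), Slc39a10 (0.54), Slc39a1 (0.40) and Slc39a6 (0.32) were higher in DCs, and Slc39a4 (-1.37), Slc30a6 (-0.63) and Slc30a1 (-0.63) lower. The calls of Slc39a1 and Slc30a1 were each lost without any of 10 arrays (adjusted p up to 0.14 and 0.111), and the direction turned for Slc39a6 over the mean of its probe sets (-0.15) and for Slc30a1 with the set of sample names, of which the labels use 2, as a term in the model (0.07). In the comparisons among DC subsets that term gave the same counts as leaving out B cell replicate 1. Slc11a2, the close relative of Slc11a1 that imports iron, ran the other way from it: its difference was -1.25 (adjusted p = 0.00018) and that of Slc11a1 2.67 (adjusted p = 9e-08). For both genes the groups overlapped. The Slc11a1 difference came from cDCs, since pDCs lay below cDCs (-3.75, adjusted p = 4.43e-07).

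**Figure D4:**
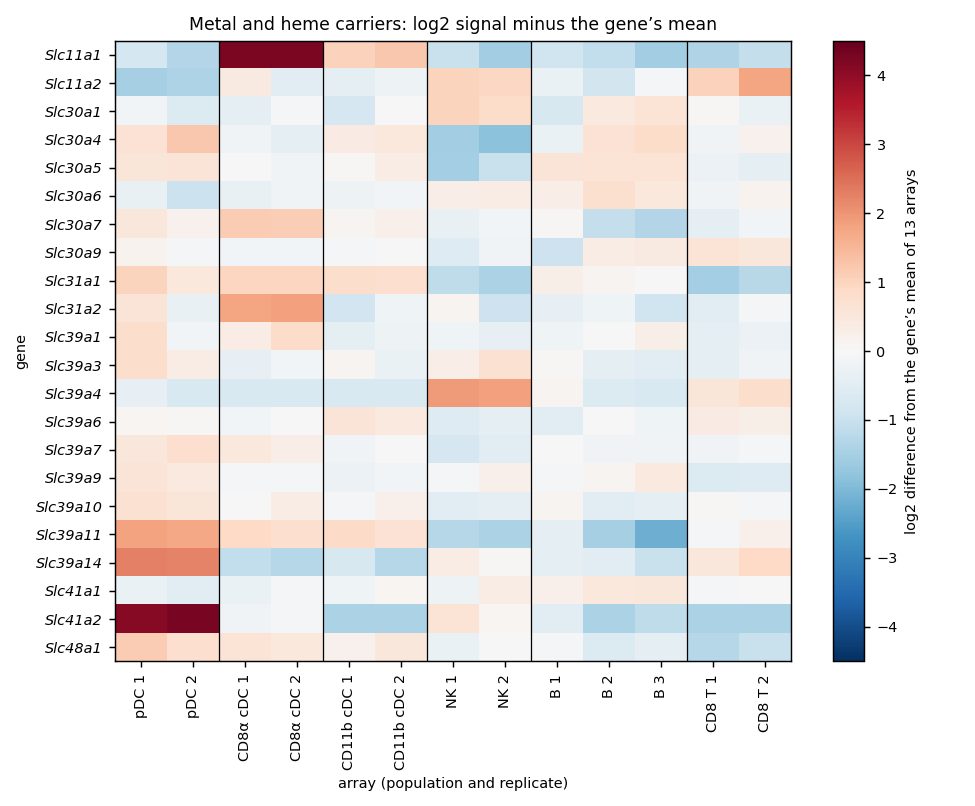
Carriers of metals and heme: log2 signal (floored at 20) on each array minus the mean of the 13 arrays, red for higher. The red blocks are Slc41a2 and Slc39a14 in pDCs, Slc11a1 and Slc31a2 in CD8α cDCs and Slc39a4 in NK cells, and Slc11a2 and Slc11a1 differ in which populations are red. Slc39a11 is higher on every DC array than on any lymphocyte array, and its difference of pDCs from cDCs (0.97) was not called (limma, adjusted p = 0.0573).

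Outside the metal carriers, Slc44a1 was higher in DCs by 2.40 ± 0.09 (log2, SE, adjusted p = 3.72e-09), with all 6 DC arrays at 384 or more and all lymphocyte arrays at 245 or less. Slc6a6, the taurine transporter, had 512 to 757 on DC arrays and 229 to 286 on lymphocyte arrays (1.32 ± 0.09, log2, SE, adjusted p = 5.46e-07). Slc12a9, of the cation and chloride family, had 107 to 257 on DC arrays and 31.6 to 68.9 on lymphocyte arrays (1.77 ± 0.21, log2, SE, adjusted p = 2.94e-05). Slc66a1, which exports basic amino acids from lysosomes, and Slc7a7, which exchanges them at the plasma membrane, differed by 2.65 (adjusted p = 9.87e-05) and 2.21 (adjusted p = 1.32e-05), with groups that overlapped at B cell replicate 1. In that array Slc66a1 was 255, against 44.9 and 57.6 in the other B cell arrays.

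Of the 2 carboxylate carriers, Slc16a1 was lower in DCs, with a difference of -2.66 ± 0.21 (log2, SE, adjusted p = 1.08e-06), with no overlap of the groups, and Slc16a7, a relative that also carries lactate and pyruvate, was higher (1.31, adjusted p = 0.00219). The groups overlapped for Slc16a7, whose CD8α cDC mean was at the lowest level of the 6 populations (difference from CD11b cDCs -2.05). Of the 9 sugar carriers, Slc2a6 was higher in DCs (1.15, adjusted p = 0.0126) and Slc2a1 and Slc50a1 were lower. Slc2a1, the general glucose importer, had 127 to 151 on the 6 DC arrays, 645 and 481 in NK cells, 400.1, 189 and 221 in B cells and 284 and 271 in CD8 T cells (-1.26 ± 0.17, log2, SE, adjusted p = 7.82e-05). The DC arrays lay close together and below every lymphocyte array. Slc50a1, a sugar carrier of the Golgi, was lower with a difference of -1.06, and Slc19a1, which imports reduced folates, had 60.7 to 89.3 on DC arrays and 134 to 309 on lymphocyte arrays (-1.54 ± 0.12, log2, SE, adjusted p = 8.24e-07). Slc12a7, which moves potassium and chloride out of the cell, was lower in DCs with a difference of -2.43 although CD8α cDCs (301 and 222) lay above B cells (80.5, 74.4 and 115). Slc25a53, a mitochondrial carrier of unknown substrate, had a difference of -2.14, but its pDC signals (1268 and 1306) lay in the range of those of NK cells (1486 and 1080.1), with a difference between these of 0.02 (adjusted p = 0.98).

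**Figure D5:**
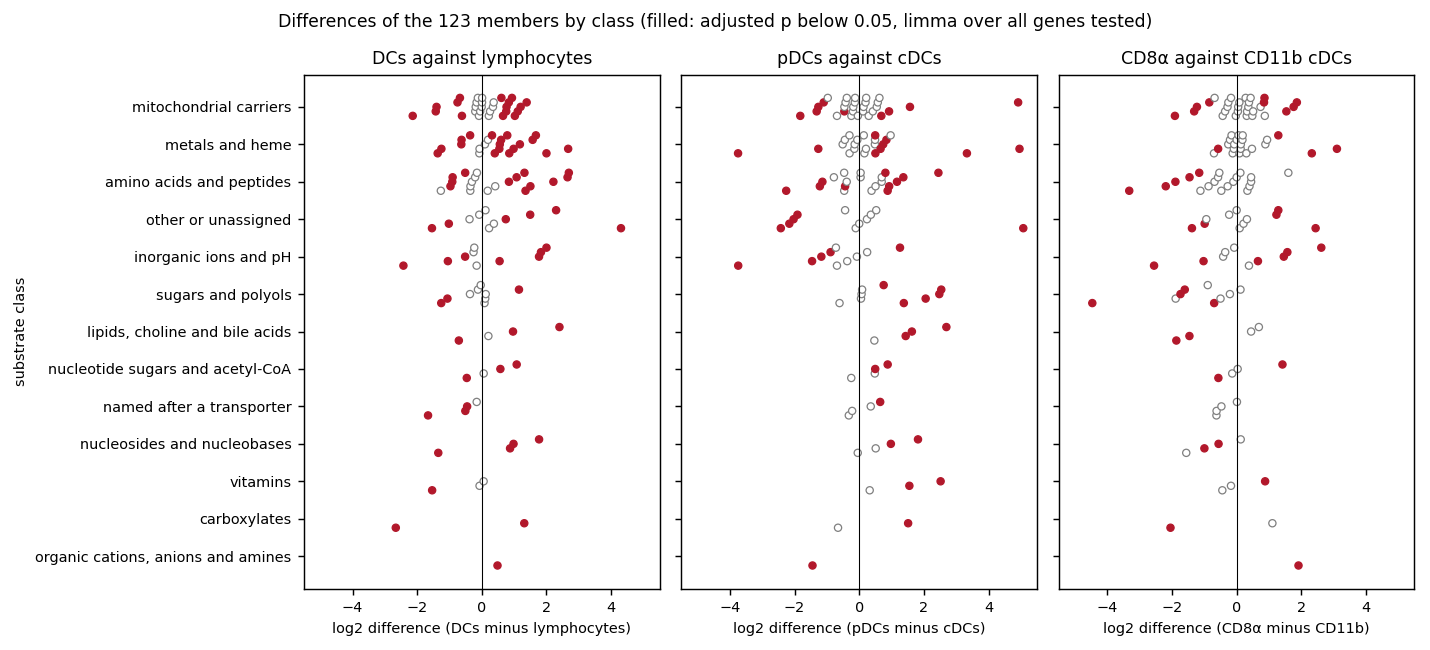
Log2 differences of the 123 members by substrate class in the 3 comparisons (1 point per gene; filled, adjusted p below 0.05). Points right of 0 are higher in DCs, in pDCs and in CD8α cDCs, from left to right. In the middle panel the called sugar carriers all lie to the right, and in the right panel they all lie to the left. In the middle panel they include Slc2a3, whose highest mean was in CD11b cDCs.

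Between pDCs and the mean of both cDC subsets, 35 members were higher in pDCs (28.5%, beside 18.3%) and 20 lower (16.3%, beside 19.6%), with a median of 0.13 over the members and -0.02 over all genes under the rule. Slc49a4, Slc41a2 and Slc25a53 differed most, by 5.08 ± 0.13 (log2, SE, adjusted p = 8.39e-10), 4.96 ± 0.24 (log2, SE, adjusted p = 4.66e-08) and 4.92 ± 0.28 (log2, SE, adjusted p = 2e-07). Slc25a53 had 17.2 and 36.4 in CD8α cDCs and 65.9 and 68.4 in CD11b cDCs, far below its pDC signals. Of the 9 sugar carriers 5 were higher in pDCs than the mean of both cDC subsets and none lower. Among the 5, Slc2a3 (2.06) had groups that overlapped and its highest mean in CD11b cDCs. The hexose transporter Slc2a6 was higher in pDCs (471 and 311 in pDCs, 138 and 117 in CD11b cDCs, 31.7 and 37.0 in CD8α cDCs, difference 2.54, adjusted p = 0.00301). So was Slc37a2, which exchanges sugar phosphates in the endoplasmic reticulum (252 and 259, 88.2 and 72.7 and 33.2 and 20.9, difference 2.48, adjusted p = 8.46e-06). Without pDC replicate 1 the adjusted p of Slc2a6 was 0.0503. The 2 vitamin carriers that differed were both higher in pDCs, Slc23a2 for ascorbate by 1.55 and Slc52a3 for riboflavin (169 and 148 against 41.2 and 34.0 in CD8α cDCs and 20.7 and 13.8 in CD11b cDCs) by 2.52.

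The choline-like carriers Slc44a1 and Slc44a2 were both higher in pDCs, by 1.44 and 1.63. Slc44a2 had 7906 and 8489 in pDCs, 5275 and 4851 in CD11b cDCs and 1495 and 1288 in CD8α cDCs, with no overlap. Among amino acid and peptide carriers 6 were higher and 4 lower in pDCs. Those higher were Slc15a3 (2.45), Slc15a4 (1.36), Slc36a4 (1.17), Slc38a1 (0.93), Slc7a6 (0.88) and Slc38a9 (0.81), and those lower were Slc6a13 (-2.26), Slc7a7 (-1.22), the glutamine transporter Slc1a5 (-1.14) and Slc6a6 (-0.44). Of these, Slc38a1 and Slc7a6 lost the call without any of 10 arrays (adjusted p up to 0.2 and 0.207), Slc7a7 without any of 5 (up to 0.154), Slc15a4 without pDC replicate 1 (0.0622), Slc1a5 without pDC replicate 2 (0.0593), Slc36a4 without any of 4 arrays (up to 0.167) and Slc6a6 without any of the 6 DC arrays (up to 0.146). Lower in pDCs by the widest margins were Slc11a1 (-3.75 ± 0.24, log2, SE, adjusted p = 4.43e-07) and Slc12a2 (-3.74 ± 0.29, log2, SE, adjusted p = 2.08e-06), followed by Slc66a2 (-2.43), Slc6a13 and Slc46a3 (-2.16).

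Between the cDC subsets, 18 members were higher in CD8α cDCs (14.6%, beside 9.11%) and 24 in CD11b cDCs (19.5%, beside 11%), and quantile normalization turned this split to 22 and 16. Leaving out any of the 4 cDC arrays brought the sum of 42 down to 23, 23, 23 and 25. Slc11a1 (3.10 ± 0.27, log2, SE, adjusted p = 1.24e-05), Slc12a7 (301 and 222 against 37.4 and 47.4; 2.62 ± 0.24, log2, SE, adjusted p = 1.55e-05) and Slc22a23 (2.44 ± 0.16, log2, SE, adjusted p = 1.48e-06) differed most in favor of CD8α cDCs. In favor of CD11b cDCs, Slc2a3 (-4.47 ± 0.39, log2, SE, adjusted p = 1.21e-05), Slc15a3 (-3.32 ± 0.20, log2, SE, adjusted p = 8.22e-07) and Slc12a2 (-2.56 ± 0.33, log2, SE, adjusted p = 0.000246) differed most. These calls held without each array in turn. Among the cation and chloride cotransporters, Slc12a4, which like Slc12a7 moves potassium and chloride out of the cell, was higher in CD11b cDCs (-1.02, adjusted p = 0.0068, up to 0.0737 without CD8α cDC replicate 2 or CD11b cDC replicate 1), and Slc12a9 had a difference of 0.38 (adjusted p = 0.562).

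By class, 5 amino acid and peptide carriers were higher in CD11b cDCs and none in CD8α cDCs: Slc15a3, Slc15a4, the branched-chain amino acid transporter Slc43a2 (837 and 804 against 238 and 204; -1.89, adjusted p = 0.0107), Slc7a7 (298 and 272 against 110.2 and 97.5; -1.46, adjusted p = 0.0338) and Slc6a13. Slc43a2 and Slc7a7 lost the call without any of the 4 cDC arrays, with adjusted p of up to 0.0849 and 0.175, and Slc6a13 without CD8α cDC replicate 1 or CD11b cDC replicate 2 (up to 0.122). The 4 sugar carriers that differed, Slc2a3, Slc37a2, Slc45a4 and Slc50a1, were all higher in CD11b cDCs, and Slc45a4 had 179 and 226 there and 75.1 and 48.5 in CD8α cDCs (-1.74, adjusted p = 0.00112). The Slc50a1 call was lost without any of 9 arrays (adjusted p up to 0.212). Both choline-like carriers were also higher in CD11b cDCs, with differences (CD8α minus CD11b cDCs) of -1.46 for Slc44a1 and -1.87 for Slc44a2. Mitochondrial carriers were divided, with 5 higher in CD8α cDCs and 4 in CD11b cDCs. Slc25a24 (310.2 and 344 against 93.8 and 86.0) was higher in CD8α cDCs by 1.86, and Slc25a37, which imports iron into mitochondria, was lower there (42.5 and 44.8 against 197 and 137; -1.91, adjusted p = 0.00179).

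At the other end, 14 members did not pass the F-test. They included Slc25a46 of the outer mitochondrial membrane (population means spread over 0.50 log2), Slc35a4 of the nucleotide sugar family (0.40), Slc25a36 (0.59), a pyrimidine nucleotide carrier, and Slc25a5, an exchanger of ADP and ATP (0.69, adjusted p = 0.0863). Slc15a2, a peptide importer, was among them, and its replicates disagreed, with 46.3, 365 and 541 in B cells and 333 and 39.2 in CD8 T cells. Slc25a3, Slc25a4, Slc3a2 and Slc7a1 did pass the F-test (adjusted p = 0.0291, 7.48e-05, 0.0118 and 0.011). The mitochondrial phosphate carrier Slc25a3 had signals of 3428 to 5989 over all 13 arrays. It was lower in pDCs than in cDCs (-0.46, adjusted p = 0.0441), a call lost without any of 7 arrays. The ADP and ATP exchanger Slc25a4 had its highest mean in CD8 T cells (1791 and 2039) and its lowest in NK cells (524 and 504). Neither of these passed the test against every other population, but Slc25a4 was higher in DCs than in lymphocytes (0.66, adjusted p = 0.00124). Slc3a2, the heavy chain that carries several amino acid transporters to the surface, had 1388 and 948 in CD8α cDCs and 328 and 566 in CD8 T cells. The arginine transporter Slc7a1 had 814, 2808 and 2861 in B cells, where replicate 1 lay within the range of the other populations and the follicular arrays above it. Slc7a1 was lower in DCs with a difference of -0.91 (adjusted p = 0.0148), and this call was lost without NK replicate 1 or CD8 T cell replicate 1 (adjusted p up to 0.0539). Its direction turned with the set of sample names as a term (0.085). In the comparisons among DC subsets that term gave the same counts as leaving out B cell replicate 1. The part of that array in the turn was not tested.

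Genes that miss the rule bear on what these cells transport as well. Slc7a5, the light chain that pairs with Slc3a2 for large neutral amino acids, averaged 150.4 in B cells but did not reach 100 on all B cell arrays. Slc40a1, the iron exporter of macrophages, averaged at most 40.5, Slc7a11, the cystine importer, at most 23.2, and Slc16a3, the lactate exporter of glycolytic cells, at most 18.2. Slc symbols of other forms (letters other than a, and the Slco family) were not members. Of 20 tested, 8 were higher and 7 lower in DCs, 3 higher and 5 lower in pDCs than in cDCs, and 5 higher and 2 lower in CD8α than in CD11b cDCs. Over all 9380 genes tested the shares higher and lower were 31.3% and 32.3%, 17.7% and 19.1%, and 8.96% and 10.6% in these comparisons. Slco4a1, of the organic anion family, had 2480.1 and 2062 in pDCs against at most 18.3 in cDCs, and Slco3a1 had 1013 and 886 in CD8α cDCs against 64.9 and 82.7 in CD11b cDCs (3.69, adjusted p = 3.75e-07).

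Transporters under other symbols and partners of the carriers gave the setting. Of 26 tested transporters without an Slc symbol, read against the same shares, 12 were higher and 5 lower in DCs, 5 higher and 7 lower in pDCs, and 2 higher and 4 lower in CD8α cDCs. The heme exporter Flvcr1 had 846 and 652 in CD11b cDCs and 233 and 259 in CD8α cDCs (-1.60, adjusted p = 0.000142), and the lysosomal cholesterol exporter Npc1 had 690.5 and 725 in pDCs and 83.6 and 73.5 in CD8α cDCs (2.38, adjusted p = 1.4e-06 for pDCs against cDCs). Of 17 tested partners, again beside those shares, 10 were higher and 5 lower in DCs, 4 higher and 2 lower in pDCs, and none higher and 3 lower in CD8α cDCs. The transferrin receptor Tfrc, which supplies iron, had 2015 and 2944 in pDCs, 1082 and 1003 in CD11b cDCs and 348 and 261 in CD8α cDCs. Emb, a chaperone that brings monocarboxylate carriers to the surface, had 1605 and 1596 in CD8 T cells, 179 and 140.0 in pDCs and 83.6, 41.4 and 63.0 in B cells. Unc93b1, which escorts the endosomal Toll-like receptors, had 1358 and 788 in pDCs and 45.4 and 31.9 in CD8 T cells, and was higher in DCs by 2.62 (adjusted p = 5.61e-07). Mt1, a zinc-binding metallothionein, averaged 306 in CD8α cDCs, 212 in CD11b cDCs and 16.3 in pDCs (-3.66, adjusted p = 2.11e-07 for pDCs against cDCs).

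The array held a single probe set for 48 members, whose values have no second measurement, and several for 75. In 32 of these, 49 other probe sets also met the signal rule, and 34 of the 49 were highest in the same population as the one used.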

How the data were processed

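RNA of sorted spleen populations was amplified and hybridized to 13 Affymetrix Mouse Genome 430 2.0 arrays. The deposited values are intensity signals of the MAS5 algorithm, 1 per probe set, and the authors scaled each array to a target of 100. Instrument records gave scan days and RNA amounts (50 ng for B cell replicates 2 and 3, 89 ng for pDC replicate 2, 100 ng where given for others). Of 45101 probe sets, 34958 had 1 gene symbol, 932 had more than 1 and 9211 had none. The probe set with the highest mean represented each of 18194 genes, and 9380 genes that reached 50 on every array of 1 or more populations were tested.

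Signals were floored at 20 and log2-transformed. One limma model (version 3.58.1, R 4.3.3) fitted 6 population means (7 residual degrees of freedom), with Benjamini-Hochberg adjustment over all genes tested. A member was called highest or lowest in a population from the largest one-sided p of its 5 pairwise tests. Scripts were tested on simulated data. Array number limits the precision. Replicate numbers were not taken as pairs.

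Members, lists, classes and the rule for named genes were chosen with earlier results of these data known. That rule took members with the widest gaps, the largest differences in each comparison, those nearest to the signal limit and the highest member of each class. It also took a list of transporters known in immune cells and those the study names. Of 40 tested in that list, 16 were higher and 10 lower in DCs, 14 and 6 in pDCs than in cDCs, and 1 and 12 in CD8α than in CD11b cDCs. Over all 9380 genes tested the shares higher and lower were 31.3% and 32.3%, 17.7% and 19.1%, and 8.96% and 10.6%. The family 49 class, the class of genes named after a transporter, Slc6a6, Slc7a1, Slc25a4, Slc25a12, Slc25a13, Slc25a36, Slc25a46, Slc30a6, Slc30a7, Slc35a4, Slc36a4, Slc39a1, Slc45a4, Slc50a1, Slc52a3, Slc66a1 and the genes named that are no members were added after their values were seen. Alternatives changed the normalization, floor, filter, variance prior, probe set rule, blocks and arrays. Promoter sequences are RefSeq's (GRCm38.p6).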

Additional observations from a re-analysis of the deposited data

How the results depend on the processing

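The counts of members that varied among the populations, differed between DCs and lymphocytes or differed between pDCs and cDCs stayed within 1.5 times the reported count under every alternative run. The others moved. The 42 members that differed between the cDC subsets became 25 without a floor, 26 without a filter and 23 to 56 when each array was left out (56 without B cell replicate 1). The 23 members highest in 1 population became 9 without a floor and 15 to 33 when each array was left out (33 without B cell replicate 1). The 5 members lowest in 1 population became 3 without a filter, 9 with the set of sample names as a term, 8 without both NK cell arrays, an alternative chosen after seeing the data, and 2 to 11 when each array was left out. At a signal threshold of 200 in place of 100, 77 genes were members. Of 163 calls of single members, 127 held without a floor, 133 without a filter and 163 with scan day as a random block. The difference of DCs and lymphocytes changed sign for Slc39a6 over the mean of its probe sets (-0.15), and for Slc30a1 (0.07) and Slc7a1 (0.085) with the set of sample names as a term. Among DC subsets that term gave the same counts as leaving out B cell replicate 1: 42 higher and 26 lower in pDCs, 25 and 31 in CD8α cDCs. With each array left out in turn, Slc30a1 and Slc7a1 stayed lower in DCs (-0.77 to -0.50 and -1.11 to -0.81). With the replicate number as a block, 100 members varied, 75, 53 and 35 differed in the 3 comparisons, 20 stood highest and 4 lowest in 1 population. Arrays 1 and 2 of each DC subset and of NK cells came from separate sorting experiments, but the sources used here do not say whether a number marks an experiment. Over 15 pairs of populations, arrays that shared a number had deviations with correlations between -0.20 and 0.18. The causes of these shifts were not tested. With 2 or 3 arrays per population and signals near the floor, small differences and those of dim genes are the least certain.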
